A study of Mus musculus with 6 samples.

Results

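The genes described here encode the working parts of the lysosome: 43 genes for acid hydrolases, lipid carriers, membrane proteins, the proton pump and the transcription factor Tfeb. These genes, the members below, were taken by name, and all 43 had a value among the 16344 genes of the table. RNA came from 6 tumours of the transplantable mouse line 60577, a model of high-grade serous ovarian cancer, grown in the abdomen of mice and left 21 days to establish. Carboplatin, a platinum drug, was given to all of them in 3 weekly cycles. AZD7507, an inhibitor of the receptor CSF1R, was then gavaged daily (84 days in the protocol) in the group of 3 called AZD7507, and vehicle in the group of 3 called Vehicle. Tumours were collected at the humane endpoint, so time of collection cannot be told apart from treatment. The labels give no genotype, strain or age, and all tumours derive from 1 injected cell line in syngeneic hosts.

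Lysosomes are acidic compartments in which proteins, glycans and lipids are broken down. A proton-pumping ATPase keeps them acid, heavily glycosylated membrane proteins such as LAMP1 and LAMP2 line them, and TFEB switches many of their genes on together. Nearly every cell has lysosomes, but macrophages, which digest what they engulf, are rich in them and make some hydrolases, such as cathepsin S and lysozyme, in particular abundance. CSF1R signalling sustains macrophages, so the comparison asks which lysosomal transcripts moved with macrophage transcripts and which did not.

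Values are log2 RPKM, the log2 of read density corrected for gene length and for the size of the library. A value written with ± is a mean with its SD over the 3 libraries of a group (n = 3). Differences are AZD7507 minus Vehicle in log2 RPKM, so a negative value is a lower level under AZD7507. They were tested with limma across all 16344 genes, and the call threshold was a Benjamini-Hochberg adjusted p of 0.05. Csf1r itself went from 4.97 ± 0.45 to 2.35 ± 0.56, a log2 difference of -2.62 (limma adjusted p 0.035, and 0.067 to 0.15 with any 1 library left out). The labels do not tie each tumour to an animal, so p-values reflect only how far these tumours spread. The depth of the libraries is unknown, as no read counts were used. In these bulk tumours fewer macrophages and less RNA per macrophage cannot be told apart.

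Lysosomal genes differed unevenly. In 24 of the 43 (55.8%, beside 47.6% of all genes) the difference was bounded within 1.5-fold. Ctss, Lyz2, Ctsh and Man2b1 were 1.99-fold to 3.16-fold lower with AZD7507. Ctsh, the gene of cathepsin H, was the 1 member of 43 that fell at the threshold, where 0.337% of all genes fell. None rose, against 0.0184% of all genes. Before adjustment, 8 members were lower at a p under 0.05 (background 5.49%) and 0 were higher (background 3.31%). In 12 members every AZD7507 library lay below every vehicle library (background 8.02%), and in 0 members every one lay above (background 7.34%). The median difference of the 43 was -0.18 and 30 were below 0, beside a median of 0.03 over all genes, of which 45.5% were below 0.

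The 43 genes were sorted by the 95% interval of their difference. In 7 members the interval lay below 0 and the groups did not overlap (background 5.07%): Ctss, Ctsh, Lyz2, Man2b1, Lgmn, Mcoln1 and Arsb. In 24 members, or 55.8%, the whole interval lay within a 1.5-fold change either way, a share near the 47.6% of all genes. These shares were not matched for level. All 43 members averaged above 0 log2 RPKM, while 1475 genes of the table were below 0 in every library. The other 12 members fell in neither class. Just inside the first class was Arsb, whose interval ended at -0.01, and just outside were Asah1, whose interval ended at 0.01, and Ctsd, whose groups overlapped.

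**Figure D1:**
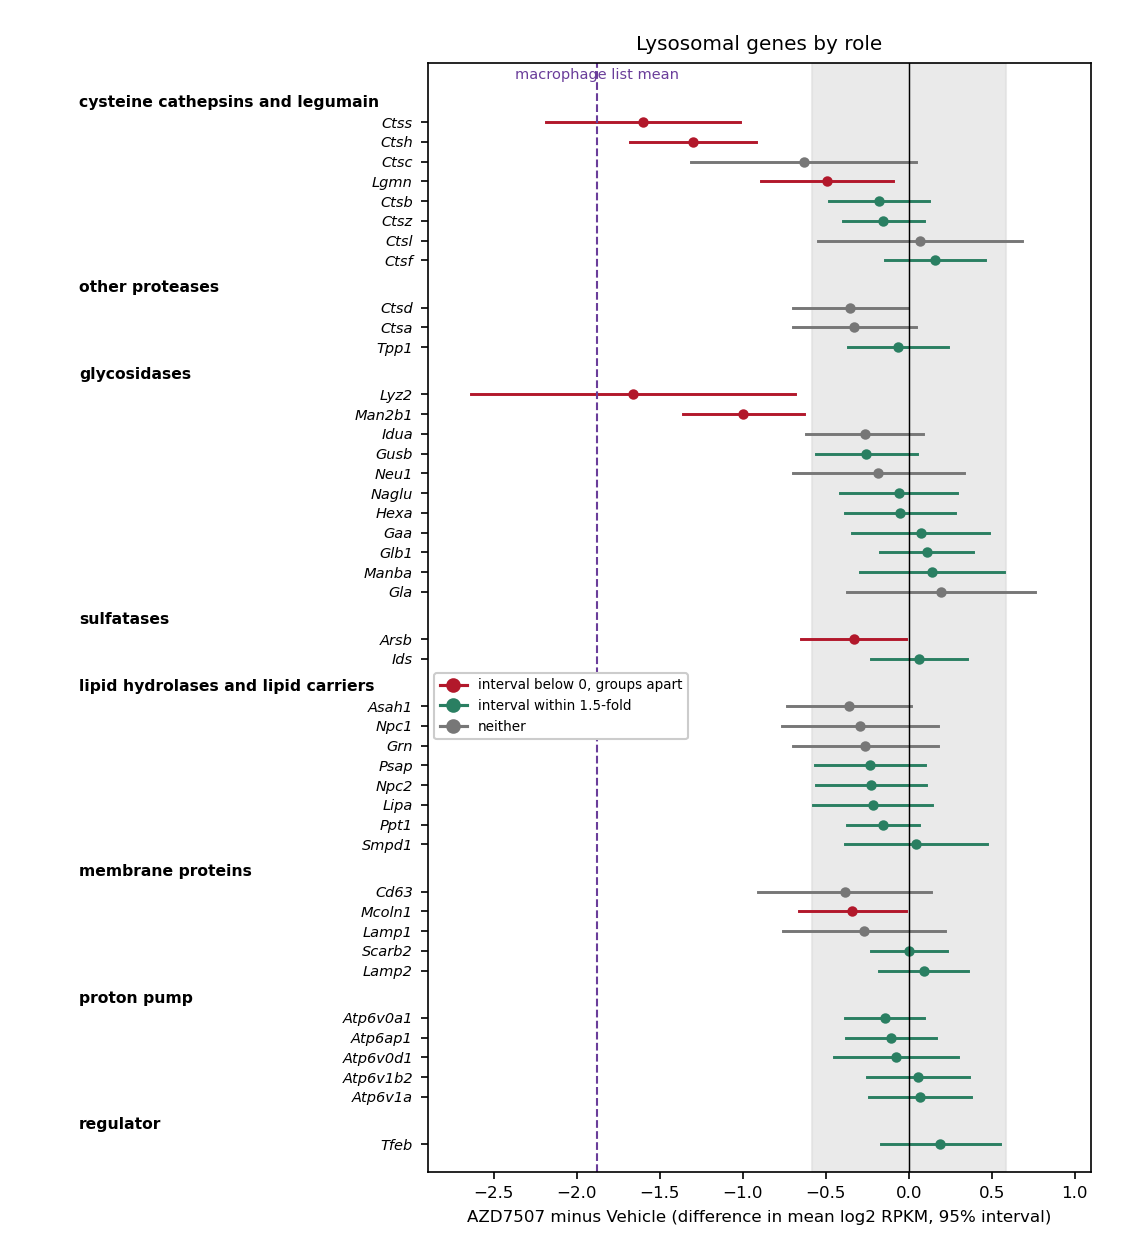
Difference between AZD7507 and Vehicle in mean log2 RPKM (x axis) for each of the 43 genes, grouped by role, with points at the estimate and lines for limma's 95% interval. The grey band is a 1.5-fold change either way and the dashed line the mean difference of 15 macrophage genes (-1.88); Ctss, Lyz2, Ctsh and Man2b1 lie farthest left, and all 5 proton pump genes lie inside the band.

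The differences of the cysteine cathepsins, papain-type proteases, and legumain ran from -1.60 to 0.16. Ctsh, an aminopeptidase among them, was at 3.32, 3.22 and 3.09 in the vehicle libraries and at 2.17, 1.94 and 1.61 in the AZD7507 libraries. The groups were thus separated by a wide gap. It fell by 1.30 on the log2 scale (SE 0.16), 2.46-fold, with a limma adjusted p of 0.035. The call needed all 6 libraries: with any 1 of them left out the limma adjusted p lay between 0.071 and 0.16, while the difference stayed between -1.43 and -1.15. A constant variance prior gave a limma adjusted p of 0.063. Ctsh is a protein-coding gene on the plus strand of chromosome 9 of GRCm38, at 90054152 to 90076089.

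Ctss encodes cathepsin S, which macrophages and other antigen-presenting cells use to process the invariant chain of MHC class II. It was at 5.12, 5.35 and 4.87 with vehicle, against 3.88, 3.70 and 2.96 with AZD7507. Every treated library lay well below every vehicle library. The difference was -1.60 (SE 0.25), a 3.03-fold lower level, but the limma adjusted p of 0.062 missed the threshold. Ctss lies on chromosome 3 at 95526786 to 95556403, plus strand.

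The start of Ctss is shown because its promoter holds, across the start, the letters GAGGAAGT, bound by PU.1, the myeloid transcription factor. Both sequences below are RefSeq's (GRCm38.p6) and are read on the gene's strand, with the match, here on the opposite strand, in capitals.
Ctss, chr3:95526752-95526791, plus strand: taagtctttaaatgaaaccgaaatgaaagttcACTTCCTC
Ctsc, chr7:88277918-88277957, plus strand: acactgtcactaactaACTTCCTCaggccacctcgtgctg
The window of 300 bases (250 before the start, 50 after) held GAGGAAGT on either strand in 4 of the 38 members with a RefSeq promoter, namely Ctsc, Ctss, Gla and Gusb. That is 10.5%, beside 3.72% of 10781 table genes with a promoter and 3.69% of 27025 genes in all. The longer AGAGGAAGT, which contains it, was in Gusb alone, 2.63% of members and 1.3% of table genes. Gla, which shares the letters, differed by 0.19, so the 4 genes did not move alike. Ctsh, Ctsb, Npc1, Asah1 and Atp6v1b2 had no RefSeq promoter available here, so they were not searched for these or any other letters.

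The remaining cathepsins of this family differed less. Ctsc, whose product activates serine proteases of leukocytes, was at 4.96, 5.63 and 4.87 with vehicle and at 4.71, 4.89 and 3.96 with AZD7507. Its groups overlapped slightly, and its difference was -0.63 (SE 0.29, limma adjusted p 0.60). Lgmn, the asparaginyl endopeptidase legumain that processes cathepsins, was at 4.89 or more in each vehicle library and at 4.76 or less in each AZD7507 library. It differed by -0.49 (SE 0.17, limma adjusted p 0.44). Ctsb was at 6.93, 7.08 and 6.99 with vehicle and at 6.98, 6.66 and 6.83 with AZD7507, differing by -0.18 with an SE of 0.13 and a limma adjusted p of 0.77. Ctsz was at 5.21, 5.28 and 5.27 with vehicle and at 5.21, 5.05 and 5.03 with AZD7507, differing by -0.15 with an SE of 0.10 and a limma adjusted p of 0.76. The groups of both genes overlapped or touched. Both of these broadly expressed proteases had intervals within 1.5-fold, as did Ctsf, at a difference of 0.16.

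Ctsl, the gene of cathepsin L, had the highest log2 RPKM of the 43 averaged over all 6 libraries, while Lyz2 was higher in the vehicle group, at a mean of 7.76 against 7.44. It was at 7.26, 7.49 and 7.59 with vehicle and at 7.77, 6.90 and 7.87 with AZD7507. The treated libraries lay on both sides of the vehicle libraries, and the difference was 0.07 (SE 0.26, interval -0.54 to 0.68, limma adjusted p 0.97). Of the summed RPKM of the 7 cysteine cathepsins, Ctss made up 8.61%, 8.77% and 6.63% in the vehicle libraries and 3.32%, 4.13% and 1.83% in the AZD7507 libraries. The shares of Ctss did not overlap between the groups, while those of Ctsl did, from 37.9% to 43.8% with vehicle and from 37.9% to 55.3% with AZD7507.

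**Figure D2:**
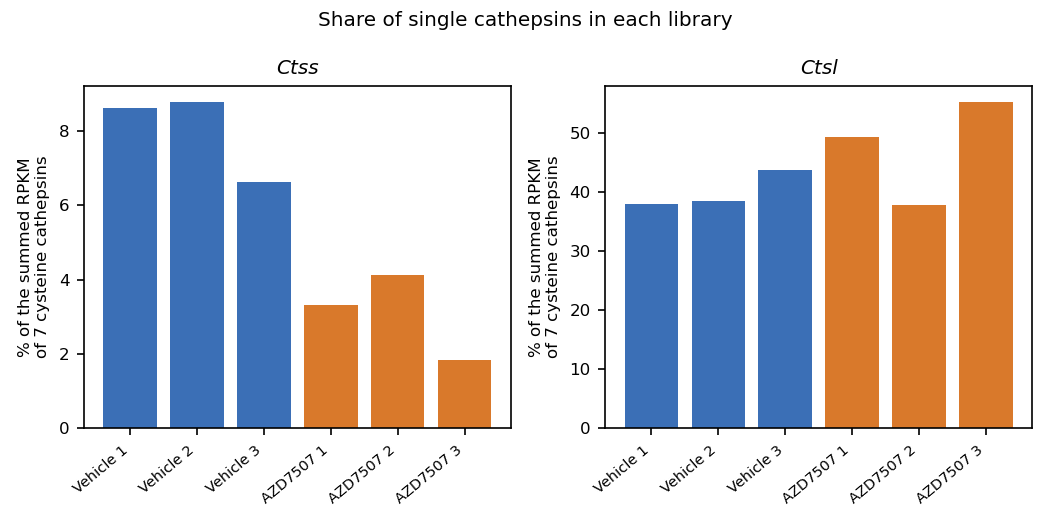
Share of Ctss (left) and Ctsl (right) in the summed RPKM of the 7 cysteine cathepsins Ctsb, Ctsc, Ctsf, Ctsh, Ctsl, Ctss and Ctsz (y axis, %), 1 bar per library, Vehicle in blue and AZD7507 in orange. Ctss was at 6.63% or more in the vehicle libraries and at 4.13% or less in the AZD7507 libraries; the panels have different y scales.

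The other proteases were closer to level. Ctsd, the major aspartic protease of lysosomes, was at 6.38, 6.58 and 6.62 with vehicle and at 6.41, 6.16 and 5.96 with AZD7507. Its difference was -0.35 (SE 0.15, limma unadjusted p 0.047, adjusted p 0.56). The highest AZD7507 library lay just above the lowest vehicle library. Ctsa, a carboxypeptidase that also protects beta-galactosidase and neuraminidase, differed by -0.33 with an interval from -0.70 to 0.04. Tpp1, a tripeptidyl peptidase lost in a form of neuronal ceroid lipofuscinosis, was at 5.40 ± 0.18 and 5.34 ± 0.10, within 1.5-fold.

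Glycosidases, which take sugar chains apart, split between 2 low members and 9 that were nearer to level. Lyz2, the lysozyme of macrophages and neutrophils, was at 7.30, 8.21 and 7.78 with vehicle and at 6.96, 6.02 and 5.32 with AZD7507. Its groups were apart. The difference was -1.66 (SE 0.42), 3.16-fold, with a limma adjusted p of 0.24. Lyz2 (chromosome 10, 117277331 to 117282321, minus strand) has a close copy, Lyz1, with which reads may have been shared.

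Man2b1, the lysosomal alpha-mannosidase, was at 5.06, 5.55 and 5.10 with vehicle and at 4.26, 4.33 and 4.13 with AZD7507. The 3 treated libraries lay close together and well below the vehicle libraries. The difference was -0.996 (SE 0.15), 1.99-fold, with a limma adjusted p of 0.062. It lies on the plus strand of chromosome 8 at 85083270 to 85098282.

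Of these low glycosidase genes, neither promoter window held GAGGAAGT or CACGTG, the core of the TFEB site. Only these exact letters were looked for, and GAGGAAGT reads ACTTCCTC on the opposite strand. Near forms were not counted, such as acttcctg, which opens the Lyz2 bases below, and ccttcctc in those of Man2b1. The 100 bases before each start are given for comparison with Ctss (RefSeq GRCm38.p6, gene's strand, no part marked).
Lyz2, chr10:117282273-117282372, minus strand: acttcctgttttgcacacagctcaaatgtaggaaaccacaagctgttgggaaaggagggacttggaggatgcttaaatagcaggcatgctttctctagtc
Man2b1, chr8:85083169-85083268, plus strand: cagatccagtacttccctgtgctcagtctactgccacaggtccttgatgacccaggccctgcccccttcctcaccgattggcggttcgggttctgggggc

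Of the other glycosidases, Hexa, Naglu, Gaa, Glb1, Manba and Gusb had intervals within 1.5-fold. Hexa encodes the alpha subunit of beta-hexosaminidase and was at 5.32 ± 0.05 and 5.27 ± 0.24. Glb1, the beta-galactosidase, was at 2.37 ± 0.15 and 2.48 ± 0.03, and Gaa, the acid alpha-glucosidase, at 5.30 ± 0.28 and 5.37 ± 0.21. Loss of these enzymes causes Tay-Sachs disease, GM1 gangliosidosis and Pompe disease, and the groups overlapped for all of them. Gla, Neu1 and Idua differed by 0.19, -0.18 and -0.26 with wider intervals. The groups of Idua, and those of Gusb at a difference of -0.26, were barely apart. Gla had a wide spread with vehicle, from 2.33 to 3.36, and a narrow one with AZD7507, from 2.96 to 3.00.

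Of the sulfatases, Arsb was at 3.32, 3.54 and 3.10 with vehicle and at 2.89, 3.00 and 3.07 with AZD7507. Its groups were apart by a narrow margin, differing by -0.33 with an SE of 0.14 and a limma adjusted p of 0.54. Ids differed by 0.06, within 1.5-fold. Both act on glycosaminoglycans.

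No gene of lipid breakdown or transport met the first class, and 7 of 8 had a difference below 0. Psap, the precursor of the saposins, was at 7.52, 7.47 and 7.32 with vehicle and at 7.21, 7.40 and 7.005 with AZD7507. Its groups overlapped and its difference was -0.23 (SE 0.14, limma adjusted p 0.72). Grn, the gene of progranulin, differed by -0.26, Npc2 and Npc1, which move cholesterol out of lysosomes, by -0.23 and -0.30, and Lipa, the acid lipase, by -0.22. Ppt1, a thioesterase, was at 3.62, 3.58 and 3.61 with vehicle and at 3.51, 3.42 and 3.42 with AZD7507. Its groups were apart, yet its interval, the narrowest of the 43, ran from -0.37 to 0.06 around a difference of -0.15, with an SE of 0.09 and a limma adjusted p of 0.72. Asah1, the acid ceramidase, was at 3.39, 3.93 and 3.44 with vehicle and at 3.24, 3.29 and 3.15 with AZD7507. Its groups were apart too, differing by -0.36 with an SE of 0.16 and a limma adjusted p of 0.58, and Smpd1, the acid sphingomyelinase, differed by 0.05.

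The differences of the membrane proteins ran from -0.39 to 0.09. Scarb2, the receptor that carries glucocerebrosidase to lysosomes, was at 4.63, 4.50 and 4.64 with vehicle and at 4.62, 4.55 and 4.60 with AZD7507. The groups lay on top of each other, and the difference was 0.00 (SE 0.10, interval -0.23 to 0.23, limma adjusted p 1.0). Lamp2 was at 5.90, 6.11 and 5.88 with vehicle and at 6.01, 6.06 and 6.08 with AZD7507, differing by 0.09 with an SE of 0.11 and a limma adjusted p of 0.88. Lamp1 was at 6.42, 7.03 and 6.28 with vehicle and at 6.38, 6.42 and 6.13 with AZD7507, differing by -0.27 with an SE of 0.21 and a limma adjusted p of 0.79. Both LAMP genes overlapped between the groups, and Vehicle 2 was the highest library of each. Mcoln1, the calcium channel TRPML1, was at 3.67, 3.96 and 3.55 with vehicle and at 3.34, 3.53 and 3.30 with AZD7507. Its groups were barely apart, differing by -0.34 with an SE of 0.14 and a limma adjusted p of 0.54. Cd63 was measured at only 0.23 ± 0.15 and -0.16 ± 0.23, the lowest mean level of the 43. It differed by -0.39 (limma adjusted p 0.70), with groups barely apart. The annotation holds a pseudogene copy, Cd63-ps, so reads of this tetraspanin gene may have been shared and its level is uncertain.

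All 5 proton pump genes had intervals within 1.5-fold and overlapping groups. Atp6v1b2, a subunit of the catalytic head, was at 5.23, 5.58 and 5.24 with vehicle and at 5.43, 5.46 and 5.32 with AZD7507. The treated libraries lay within the range of the vehicle libraries. Atp6v1a, the catalytic subunit, differed by 0.07, and Atp6v0d1 of the membrane part by -0.08. Atp6v0a1, also of the membrane part, was at 4.19, 3.98 and 4.16 with vehicle and at 3.92, 3.98 and 3.99 with AZD7507, differing by -0.14 with an SE of 0.10 and a limma adjusted p of 0.77. The accessory subunit gene Atp6ap1 was at 5.62, 5.69 and 5.71 with vehicle and at 5.61, 5.41 and 5.68 with AZD7507, differing by -0.11 with an SE of 0.11 and a limma adjusted p of 0.86. Most treated libraries of these genes lay among or just under the vehicle libraries.

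Tfeb, the transcriptional regulator, was at 2.06, 1.68 and 2.03 with vehicle and at 2.11, 1.98 and 2.25 with AZD7507. Its difference was 0.19 (SE 0.15, interval -0.17 to 0.55, limma adjusted p 0.80). The groups overlapped, and 2 of 3 treated libraries lay above all vehicle libraries.

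TFEB, TFE3 and MITF bind the CLEAR element, whose core is CACGTG and whose longer form begins GTCACGTG. These letters were looked for on both strands of the same promoter windows. CACGTG was in 13 of 38 members, 34.2%, beside 11.5% of table genes, and GTCACGTG, which contains it, in 9, 23.7%, beside 4.71%. The overlapping TCACGTGA was in 6 members, 15.8% against 2.14%, TCACGTGAC in 5, 13.2% against 1.83%, and the full palindrome GTCACGTGAC in 0, against 0.761%. TGACTCA, the AP-1 site, was in 3, 7.89% against 4.62%. The windows of 7 of the 9 genes with GTCACGTG are shown on the gene's strand, with the match on either strand in capitals.
Mcoln1, chr8:3500430-3500469, plus strand: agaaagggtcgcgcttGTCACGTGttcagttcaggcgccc
Lgmn, chr12:102439120-102439159, minus strand: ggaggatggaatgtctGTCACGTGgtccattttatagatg
Glb1, chr9:114401012-114401051, plus strand: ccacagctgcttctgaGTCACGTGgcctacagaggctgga
Naglu, chr11:101070003-101070042, plus strand: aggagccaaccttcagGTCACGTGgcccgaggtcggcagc
Lamp1, chr8:13159117-13159156, plus strand: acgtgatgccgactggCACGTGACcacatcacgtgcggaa
Ctsd, chr7:142387902-142387941, minus strand: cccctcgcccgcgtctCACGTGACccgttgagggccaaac
Atp6v0d1, chr8:105566062-105566101, minus strand: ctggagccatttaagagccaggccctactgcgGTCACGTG
The first base of the match shown lay 73 bases before the start in Mcoln1, 51 in Lgmn, 50 in Glb1, 75 in Naglu, 28 in Lamp1, 98 in Ctsd and 5 in Atp6v0d1. Mcoln1 and Ctsd each held another match, 45 and 245 bases before the start. These genes fell in all 3 classes: Mcoln1 and Lgmn were in the first, while Glb1, Naglu and Atp6v0d1 were within 1.5-fold. The median difference of the 9 genes was -0.27 and that of the 29 members without the letters -0.15, a description with no test. For the core CACGTG the order was the opposite, -0.06 in the 13 members with it and -0.18 in those without. The order thus depended on which form of the letters was taken. A match is a run of letters and was not shown here to be bound.

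**Figure D3:**
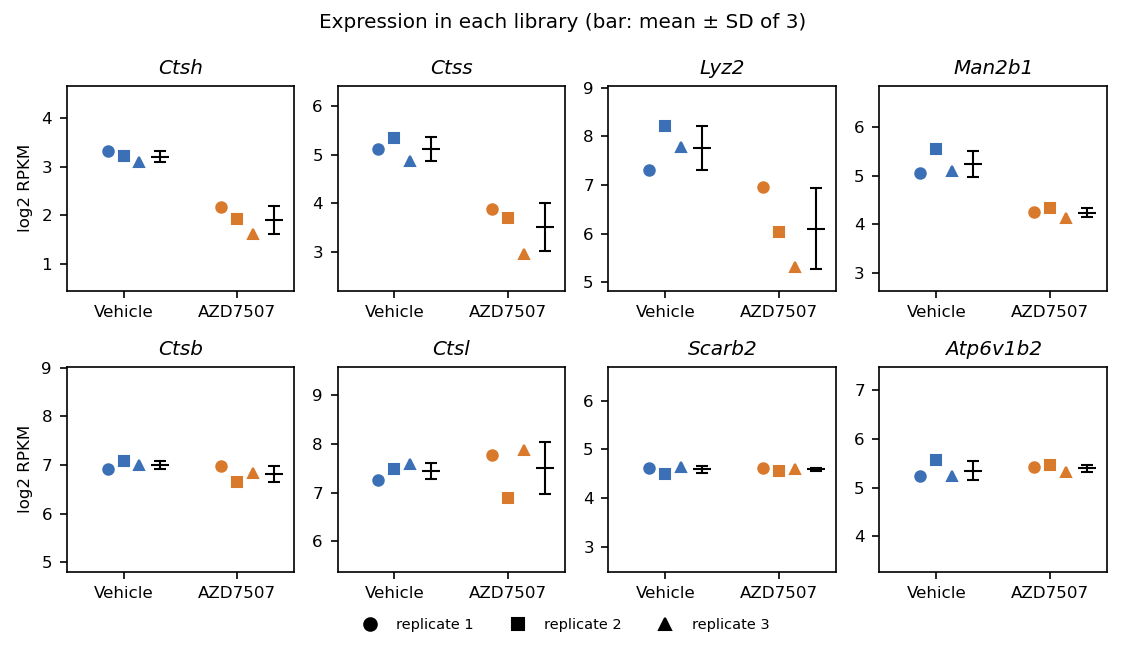
log2 RPKM (y axis, each panel spanning the same width) in the 3 Vehicle (blue) and 3 AZD7507 (orange) libraries, with mean ± SD in black, for 4 genes whose interval lay below 0 (top) and 4 genes whose groups overlap (bottom). In the top row every AZD7507 point lies below every Vehicle point.

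To ask which members changed by another amount than macrophage genes, each gene was set against the mean log2 RPKM of 15 macrophage genes in the same library. This list holds no member and was at 3.25, 4.03 and 3.08 in the vehicle libraries and 1.96, 1.79 and 0.97 in the AZD7507 libraries, a mean difference of -1.88 or 3.68-fold. Its direction was already known from earlier results of these data. A total of 39 of 43 members, or 90.7%, differed from the list towards a smaller decrease (limma adjusted p under 0.05), against 96.4% of all genes. The share is near the background, so it is no result about the members. It lay above the background without Vehicle 2 and AZD7507 2, the libraries rich in pancreatic acinar genes (88.4% against 86%), and with no moderation (90.7% against 83.1%). In the other direction 0 members and 0.0551% of all genes passed, and the relative difference was above 0 in all 43.

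The 4 members whose interval included 0, and which were thus not told apart from the list, were Ctss, Lyz2, Ctsh and Man2b1 (background 3.52%). Relative to the list, Ctss differed by 0.28 (interval -0.70 to 1.26), Lyz2 by 0.22 (-0.82 to 1.25), Ctsh by 0.58 (-0.41 to 1.56) and Man2b1 by 0.88 (-0.10 to 1.87). The intervals are wide, and an amount equal to the list's is not shown by them. With each gene's own spread in place of limma's shared prior, an alternative chosen after the data were seen, Man2b1 passed (adjusted p 0.048) and Npc1 did not (adjusted p 0.061). Against Csf1r and the C1q genes alone, 42 members passed (background 98.7%) and Lyz2 was the exception (limma adjusted p 0.055). The list's own spread enters every gene here, so the calls are not independent of each other. Lgmn, at 1.38 above the list (0.40 to 2.37), Mcoln1 at 1.54 and Arsb at 1.55 differed from it although their groups were apart. The list itself was mixed, its genes differing by -3.18 to -0.69. By the same test its own gene Trem2 lay 1.18 above the mean (limma adjusted p 0.018) and Cx3cr1 below it, at -1.30 (0.014). Departing from the list's mean thus does not set a member apart from every macrophage gene.

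Library by library, Ctss lay closest to the macrophage list. The log2 level of Ctss minus that of the list was 1.86, 1.32 and 1.78 in the vehicle libraries and 1.92, 1.91 and 1.98 in the AZD7507 libraries, an SD of 0.24 over 6 libraries, against 0.94 for Ctss alone. Ctss also ranked the libraries within each group as the list did, with Vehicle 2 highest and AZD7507 3 lowest. Gusb, Naglu and Smpd1 shared that ranking too, so 9.30% of members did, beside 2.55% of all genes. The ranking is a description of 3 libraries a group.

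**Figure D4:**
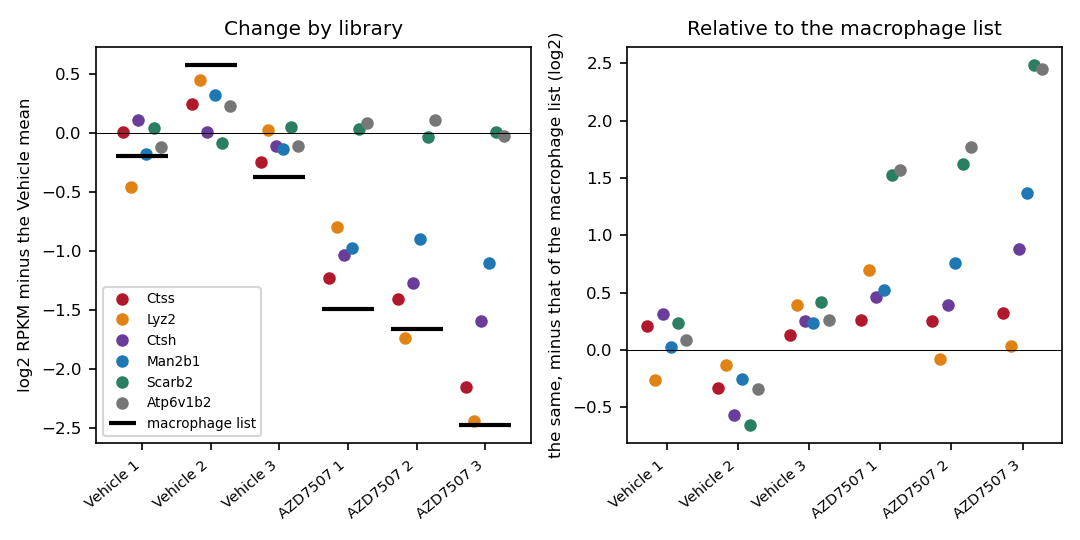
Left: log2 RPKM minus the Vehicle mean for 6 genes (points) and for the mean of the 15 macrophage genes (black bars) in each library. Right: the same values minus that of the macrophage list. Ctss stays near 0 on the right in all 6 libraries, while Scarb2 and Atp6v1b2 stay near 0 on the left.

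On the linear scale few genes made up much of the difference. The summed RPKM of the 43 genes was 1714.5, 2083.2 and 1749.9 in the vehicle libraries and 1647.8, 1434.4 and 1449.8 in the AZD7507 libraries. Lyz2 went from a mean RPKM of 224.32 to 76.6 and made up 43.6% of the difference between these sums. Psap followed with 7.39%, being abundant though its log2 difference was small, then Ctss with 6.81%, Ctsd with 5.79% and Man2b1 with 5.69%. Without the 7 members of the first class, chosen by these same values, the sums ran from 1407.8 to 1622.5 with vehicle and from 1292.8 to 1439.8 with AZD7507, and overlapped. A log2 difference describes a gene, whereas these sums are led by the most abundant transcripts.

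Of the other genes of the lysosome, 91 had a value: further hydrolases, membrane proteins, pump subunits, mannose 6-phosphate sorting, MiT/TFE factors with nutrient sensing, and cathepsin inhibitors. Among these 91, 1 fell and 0 rose (limma adjusted p under 0.05, background 0.337% and 0.0184%). At an unadjusted p under 0.05, 16 (17.6%) were lower and 3 (3.3%) higher, beside 5.49% and 3.31% of all genes. In 15 (16.5%) the interval lay below 0 with groups apart, beside 5.07%, and in 49 (53.8%) it lay within 1.5-fold, near the background of 47.6%. Their median difference was -0.04, beside 0.03 for all genes.

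The gene that fell was Slc11a1, which encodes NRAMP1, a metal transporter of phagocyte lysosomes (chromosome 1, 74375195 to 74386062, plus strand). It was at 2.42, 2.61 and 2.36 with vehicle and at 0.88, 0.35 and 0.41 with AZD7507, far apart. It fell by 1.92 on the log2 scale (SE 0.19, limma adjusted p 0.021), 3.78-fold. With 1 library left out the limma adjusted p lay between 0.024 and 0.12, and it passed only without AZD7507 1. The membrane genes Laptm5, of blood cells, and Slc15a3, a peptide transporter, were next, with differences of -1.70 (limma adjusted p 0.064) and -1.03 (0.13). Of 20 measured membrane genes in this list 6 met the first class, beside 5.07% of all genes. In 2 the interval lay above 0 with groups apart, as in 488 of all 16344 genes.

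Among 26 other hydrolases, 0 passed and 4 met the first class (background 5.07%). Sgsh, a sulfatase that degrades heparan sulfate, differed by -0.43 (limma adjusted p 0.48).

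Among 16 other pump subunits 0 passed and 11 were within 1.5-fold (background 47.6%). Tcirg1, an isoform of the large membrane subunit used in osteoclasts and other immune cells, was at 4.76 ± 0.05 and 4.34 ± 0.03, a difference of -0.41 (limma adjusted p 0.18). Its counterpart among the 43 genes, Atp6v0a1, differed by -0.14. Atp6v0c and Atp6v0a4 differed by -0.40 and 0.46 (limma adjusted p 0.51 and 0.67).

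Of 9 sorting genes, 16 of the MiT/TFE and nutrient-sensing list and 4 cathepsin inhibitors, 0 passed. In sorting, Nagpa differed by -0.57, Gga1 by -0.20 and Gga3 by -0.22 (limma adjusted p 0.34, 0.70 and 0.79). Flcn, Mitf and Fnip1 of the regulators differed by -0.39, -0.71 and -0.20 (limma adjusted p 0.35, 0.61 and 0.62). Of the inhibitors, Cst3, the gene of cystatin C, differed by -0.33, Serpina3g by 0.48 and Cstb by 0.28 (limma adjusted p 0.52, 0.53 and 0.76).

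**Figure D5:**
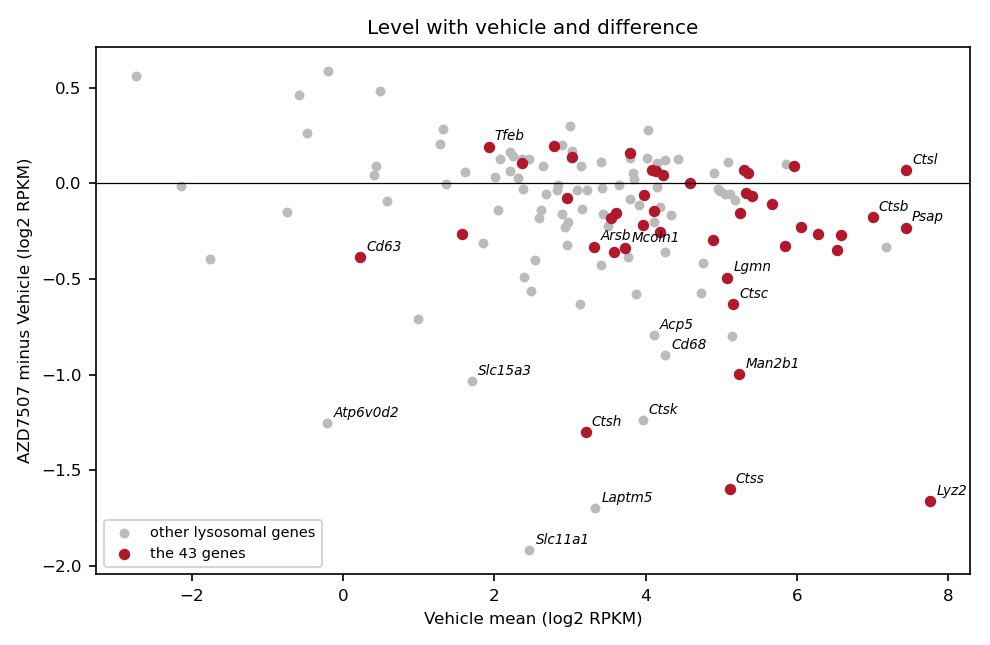
Mean log2 RPKM with vehicle (x axis) against the difference AZD7507 minus Vehicle in log2 RPKM (y axis) for the 43 genes (red) and the 91 other lysosomal genes (grey). Most points of either colour lie near 0, and the lowest points lie at different levels, Slc11a1 at 2.46 and Lyz2 at 7.76 with vehicle.

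Ctsk, Acp5 and Atp6v0d2, named after their values were seen, are genes of osteoclasts as well as of the lysosome. Ctsk was at 2.61, 6.45 and 2.82 with vehicle and between 2.39 and 2.93 with AZD7507, and Acp5 at 3.33, 5.62 and 3.37 and between 3.17 and 3.39. Atp6v0d2 was at 1.21 in Vehicle 2 and below 0 in the other 5 libraries. Vehicle 2 thus stood far above every other library for these 3 genes. The rest of the osteoclast list was mixed. Mmp9 was also highest in Vehicle 2, at 5.94. Dcstamp was at 0.30 in Vehicle 2 and 0.02 in Vehicle 3. Calcr was at -1.62 in Vehicle 2, below AZD7507 2 (-0.004) and AZD7507 3 (-1.41). Vehicle 2 also had the highest value of its group in 25 of the 43 members, beside 39.96% of all genes. AZD7507 3 had the lowest value of its group in 22 members, beside 29.9% of all genes.

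Marker lists of other cells were read as mean log2 RPKM per library. Of 15 measured macrophage genes 6 fell. The lists with no gene past the threshold ranged as follows. With vehicle and then with AZD7507, the neutrophil list (4 genes) ran from -0.74 to 1.17 and from 0.34 to 0.75, the T cell list (4) from -0.74 to -0.21 and from -1.47 to -0.73, and the B cell list (3) from 0.95 to 1.60 and from -0.32 to 1.31. The dendritic cell list (2) ran from 1.48 to 1.99 and from 1.74 to 2.22, and the osteoclast list (6) from 0.36 to 2.99 and from 0.04 to 0.69. All of these means overlapped between the groups, the T cell list barely. They cover genes that differed unlike each other. Cd4 and Cd5 (-1.36 and -1.07, both below 0 log2 RPKM throughout) had groups apart, while Cd3e and Trac differed by -0.08 and 0.03. Csf3r differed by -0.68 with groups apart, and S100a8, S100a9 and Cxcr2 by 0.91, 0.76 and 1.11 with groups overlapping. Dcstamp differed by -2.59 with groups apart, and Calcr by 1.57. The epithelial tumour list (9 of 10 genes measured) ran from 3.82 to 4.12 and from 4.26 to 4.32, so that it was higher in each AZD7507 library, with 0 genes past the threshold and 2 higher at an unadjusted p under 0.05. Its part in the members' differences was not tested. The fibroblast list (8) ran from 4.27 to 4.999 and from 4.40 to 4.78, the endothelial list (6) from 0.64 to 1.16 and from 0.74 to 1.13, and the adipocyte list (4) from 0.14 to 1.81 and from 0.61 to 2.13. Pancreatic acinar genes (8) were at a mean of 9.07 in Vehicle 2 and 9.21 in AZD7507 2 and between -3.47 and -0.18 in the other libraries. Without these 2 libraries Ctsh differed with a limma adjusted p of 0.099.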

How the data were processed

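RNA-seq of 6 frozen tumours (total RNA, ribosomal RNA depleted, per the labels' protocols) was used. The deposited values are log2 RPKM that the authors normalized with cqn, per the table's name, which adjusts for length and GC content. The submitters' processing notes name BWA 0.7.15-r1140, HTSeq, mm10 and GRCm38. Annotation release, strand setting and filter are not given in the sources used here. Symbols were matched for 16306 of 16344 identifiers. Coordinates are from GENCODE M21 (GRCm38), which may not be the authors' release.

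Tests ran on these log2 values without a pseudocount or filter. They used limma 3.58.1 (R 4.3.3) with its trend and robust settings, 2-sided, and Benjamini-Hochberg adjustment over all genes. A second fit used each value minus the mean of the macrophage genes in that library. Both were also run on simulated data, with noise drawn separately for each gene. The spread that macrophage genes share between libraries was absent there, so those runs do not show how the second fit behaves with it. Every member is described. Members past the threshold, the 10 with the smallest p, the 6 with the highest level, the 6 with the narrowest interval and Tfeb are given in full, and other lysosomal genes are those past the threshold and the 3 with the smallest p in each list. Of the genes this rule took, 2 are not reported here. The members and lists were chosen with earlier results of these data known. Alternatives were other variance priors, quantile normalization, array weights, a pseudocount of 1 or 0.1, median centring, only genes averaging at least 0, libraries left out, Csf1r and C1q genes as the macrophage list and, chosen after seeing the data, no moderation.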

Additional observations from a re-analysis of the deposited data

How the results depend on the processing

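No paired analysis was run, because the labels name no pairs between the groups. The labels give no replicate numbers, so the library numbers used here follow the order of the samples. The count of members that fell was 1 (Ctsh) and became 0 with a constant variance prior (limma adjusted p 0.063), 0 without both acinar-rich libraries and 0 to 0 with any 1 library left out. With array weights it was 2, Man2b1 joining at a limma adjusted p of 0.012. Over all genes 55 fell and 3 rose, against 143 and 14 with array weights, 13 and 1 without both acinar-rich libraries, 39 and 1 with the constant prior, and 0 to 14 and 0 with 1 library left out. Csf1r lost its call with the constant prior (limma adjusted p 0.064) and with any library left out (0.067 to 0.15). Members within 1.5-fold numbered 15 to 27 with 1 library left out. Members with an interval below 0 and groups that did not overlap numbered 5 to 8, and those that fell less than the macrophage list 38 to 39. The members' median was -0.21 to -0.13 with 1 library left out, -0.095 with array weights and -0.081 without the acinar-rich libraries. Direction was kept by 30 members in all 15 alternatives. Changes of direction arose only with array weights or with libraries left out. The other variance priors and the filter on mean level leave each difference as it was, so they could not change a direction. Quantile normalization and median centring could change little, as the library medians already lay between 2.3166 and 2.3170. Array weights turned Tpp1 to 0.011, Hexa to 0.035, Naglu to 0.094, Scarb2 to -0.018 and Atp6v0d1 to 0.065. Leaving out both acinar-rich libraries turned Hexa to 0.081, Naglu to 0.092, Scarb2 to -0.022 and Atp6v0d1 to 0.13. With 1 library left out the ranges that crossed 0 were -0.11 to 0.38 for Ctsl, -0.14 to 0.035 for Tpp1, -0.15 to 0.086 for Hexa, -0.039 to 0.48 for Gla, -0.087 to 0.17 for Gaa, -0.031 to 0.27 for Manba, -0.17 to 0.055 for Naglu, -0.31 to 0.063 for Neu1, -0.032 to 0.16 for Ids, -0.10 to 0.22 for Smpd1, -0.041 to 0.026 for Scarb2, -0.0049 to 0.17 for Atp6v1b2 and -0.19 to 0.085 for Atp6v0d1. All of these 13 were uncalled. The cause of these changes was not tested. Depth is unknown, and 3 tumours a group limit what can be called.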
